A study of Mus musculus with 4 samples.

Results

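The Nodal, bone morphogenetic protein (BMP) and transforming growth factor beta (TGF-beta) signalling genes were examined in 4 kinds of mouse cell, each measured on 1 Affymetrix array. The genes were chosen by symbol alone, as the ligands, receptors, Smad proteins, Id targets and secreted antagonists of the 3 branches, and 48 of the 18193 genes on the array met the rule. The cells comprised embryonic stem (ES) cells kept undifferentiated, cells sorted by a reporter in which HB9 is marked with green fluorescent protein (GFP), sorted Sox1 neural stem cells, and cerebellar granule cells of postnatal day 6. HB9, encoded by Mnx1, is a transcription factor of motor neurons. The labels' growth protocol describes HB9 reporter ES cells, kept with 1000 U/ml leukemia inhibitory factor over a feeder layer of mouse embryonic fibroblasts treated with mitomycin C, and it is attached to the undifferentiated ES sample, the reference of 3 of the 4 comparisons, as well as to the sorted cells. For differentiation, Sonic hedgehog, retinoic acid (0.1 uM) and purmorphamine (0.2 uM) were given over days 5 to 9, and the sort is given as day 8, so the stated exposure runs past the stated sort. No strain is given for any group, the source of the Sox1 cells is not given in the sources used here, and whether the undifferentiated cells carried the reporter is not stated in their own label.

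Ligands of this family bind paired type I and type II receptor kinases at the cell surface. The type I receptor then phosphorylates receptor Smads, which join Smad4 and enter the nucleus. Nodal, activin and TGF-beta act through Smad2 and Smad3, while BMPs act through Smad1, Smad5 and Smad9 and switch on the Id genes, inhibitors of basic helix-loop-helix factors. Mouse ES cells are known for autocrine Nodal signalling, in which Nodal, its co-receptor Tdgf1 and its feedback antagonists Lefty1 and Lefty2 are expressed together, and for BMP4-driven Id genes that hold back neural differentiation. Inhibition of both branches is a classical route to neural tissue, and in the developing cerebellum BMP signals act on the granule lineage.

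Signals are the authors' linear intensities, which have a common trimmed mean on the 4 arrays. Detection on an array meant a signal of 157.5 or more, which is 1 log2 unit above a low level of 78.8, the mean of the arrays' medians on the log2 scale. A call of higher or lower required detection on the brighter of the compared arrays and a gap of 4-fold or more, with signals under the low level raised to it. A fold against an array where the gene was undetected is a lower bound, taken against 157.5, so the bound of a called gene can be under 4. Levels are compared between arrays for 1 gene at a time, since signals of different probe sets are not on a common scale. Summed signals of marker lists are the exception, and they weight the brightest probe sets most. With 1 array per group no difference has a replicate check and no test was possible, so every statement compares these 4 arrays. In RNA of whole samples, fewer cells of a type and less RNA per cell cannot be told apart.

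The HB9-GFP+-labelled array went against its label. Mnx1 was undetected on it at 15.9, and 1 of 10 motor neuron markers was detected, Olig2 at 320.6, which was called higher than on the ES array. The ES array also had 1 of the 10 detected. All 12 pluripotency markers were detected on the HB9-GFP+-labelled array, as on the ES array, against 7 for Sox1 cells and 2 for granule cells. Pou5f1, the core pluripotency factor, was at 11188 there and at 9255.5 on the ES array. Fibroblast markers were also frequent on it, with 11 of 12 detected against 4 of 12 on the ES array, and a summed signal of 33949.9 against 9787.9. On the granule array all 8 astrocyte and Bergmann glia markers, all 7 oligodendrocyte markers and 5 of 6 Purkinje cell and interneuron markers were detected beside 9 of 10 granule neuron markers. Granule neuron markers detected on the ES, HB9-GFP+-labelled and Sox1 arrays numbered 5, 3 and 7 of the 10. Sox1 was highest on the Sox1 array, at 2262.1, where 11 of 11 neural stem cell markers were detected. Of these 11, the ES, HB9-GFP+-labelled and granule arrays had 8, 7 and 9 detected.

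Of the 48 genes, 32 were detected on at least 1 array and 19 on all 4. The number detected was 25 on the ES array, 27 on the HB9-GFP+-labelled array, 27 for Sox1 cells and 26 for granule cells. These are 52.1%, 56.25%, 56.25% and 54.2% of the 48, next to 51.8%, 51.3%, 51.5% and 52.3% of all genes, so the share detected was near that of the array as a whole. The receptors and Smads made up most of the genes detected everywhere. All 5 type II and type III receptors, 4 of 6 type I receptors, 4 of 5 receptor Smads and Smad4 were detected on all 4 arrays, whereas none of the 17 ligands was. The 16 genes detected on no array had highest signals between 10.8 and 156. They were the activin and inhibin subunits Inha, Inhba and Inhbe, the ligands Tgfb1, Tgfb3, Bmp2, Bmp6, Bmp8a, Bmp8b, Bmp10 and Bmp15, the type I receptor gene Acvr1c, Smad6, Smad9, and the BMP antagonists Nog and Chrd. Bmp8a and Bmp8b are near-identical copies and their signals may not be separate.

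**Figure D1:**
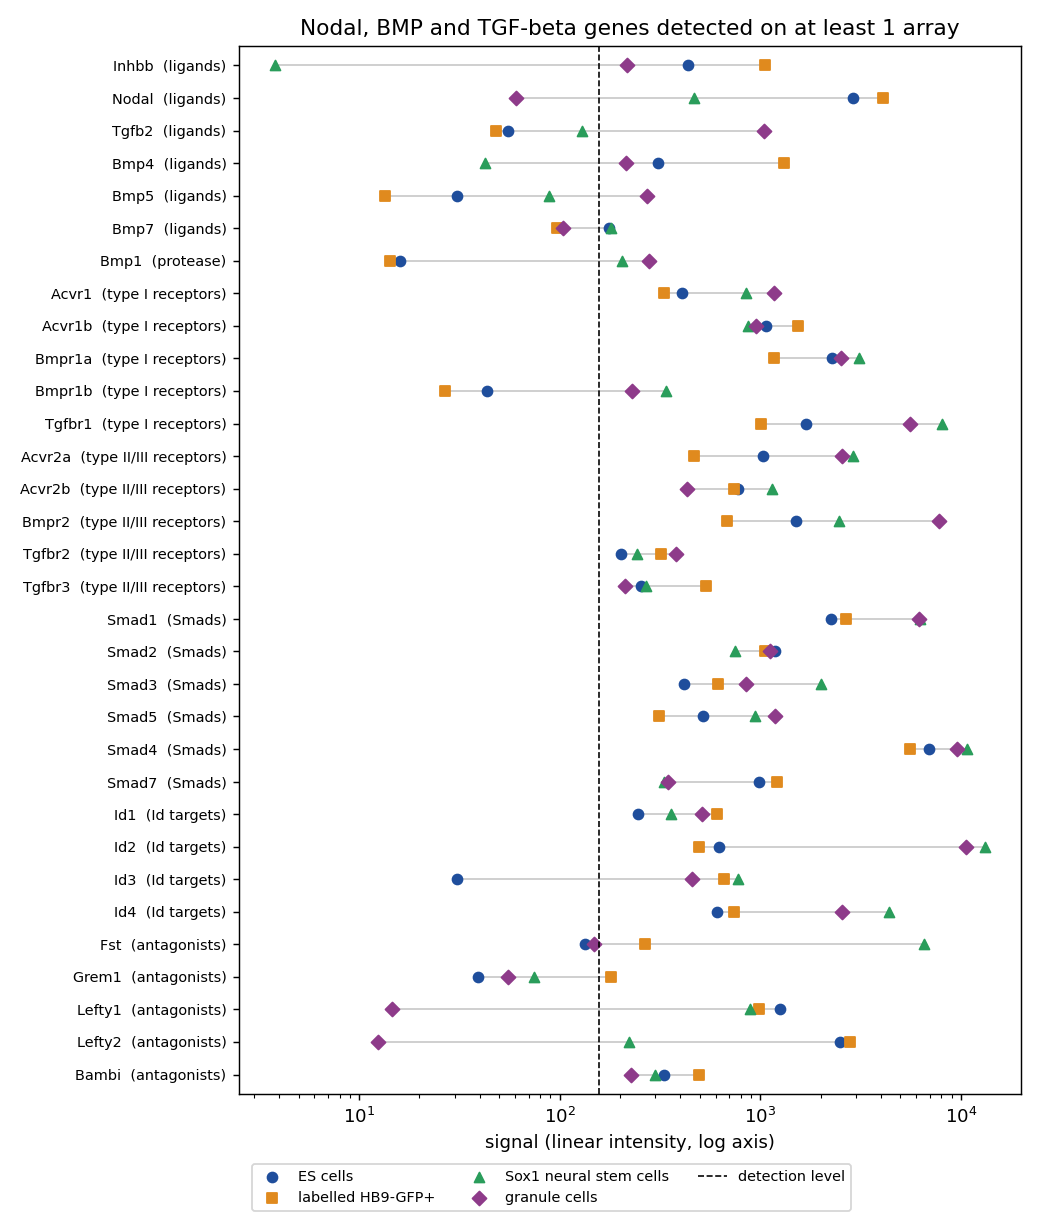
Signal of each of the 32 genes detected on at least 1 array (linear intensity on a log axis), with 1 point per array and the detection level of 157.5 as a dashed line; the role of each gene is in brackets. Nodal, Lefty1 and Lefty2 lie lowest on the granule array, Id2 and Id4 lie to the right on the Sox1 and granule arrays, and Fst stands alone on the Sox1 array.

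The calls fell into a few groups. Against ES cells, the Sox1 array had 7 genes higher (Bmpr1b, Tgfbr1, Smad3, Id2, Id3, Id4 and Fst) and 3 lower (Nodal, Inhbb and Lefty2). These 10 calls are among 29 members detected on either array, next to 11.4% called among all genes detected on either, 6.20% higher and 5.21% lower. The granule array had 5 higher than ES cells (Tgfb2, Bmpr2, Id2, Id3 and Id4) and 3 lower (Nodal, Lefty1 and Lefty2). These are 8 of 30 members, against a background of 19.6%, 11.3% higher and 8.27% lower. The HB9-GFP+-labelled array had 2 of 28 higher than ES cells, Bmp4 and Id3, and 0 lower, with 3.46% of all genes called, 2.00% higher and 1.46% lower. Between the granule and Sox1 arrays 4 of 31 members were called, Tgfb2 higher and Nodal, Lefty1 and Fst lower on the granule array, where 10.0% of all genes were called, 6.39% higher and 3.65% lower. The 3 comparisons with ES cells share the ES array and are not independent. Against each of the other 3 arrays at once, 6 members were set apart, namely Id3 low on ES, Bmp4 high on the HB9-GFP+-labelled array, Fst high on Sox1, Tgfb2 high on granule, and Nodal and Lefty1 low on granule. No member was set apart as high on ES, low on the HB9-GFP+-labelled array or low on Sox1, where 0.389%, 0.216% and 0.181% of the 11571 genes detected anywhere were.

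The median log2 difference of the members, with the low level in place, was 0.56 for Sox1 against ES, 0.97 for granule against ES, 0.26 for the HB9-GFP+-labelled array against ES and -0.18 for granule against Sox1. Over all genes detected on either array the medians were -0.02, -0.09, 0.04 and -0.07 in the same order. Scaling matters for the granule array. Centring on 7 reference genes moved the all-gene median to 0.47 for granule against ES and gave 9 members higher and 3 lower, adding Bmp5, Bmp1, Acvr1 and Tgfbr1, with 1834 genes higher and 616 lower over the array in place of 1243 and 907. The same centring moved the all-gene median to 0.54 for granule against Sox1 and gave 3 members higher and 3 lower, adding Bmp5 and Bmpr2, with 1129 genes higher and 238 lower in place of 665 and 380. For the HB9-GFP+-labelled array, quantile normalization gave 232 higher and 110 lower over all genes in place of 202 and 148, with the same 2 members called.

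**Figure D2:**
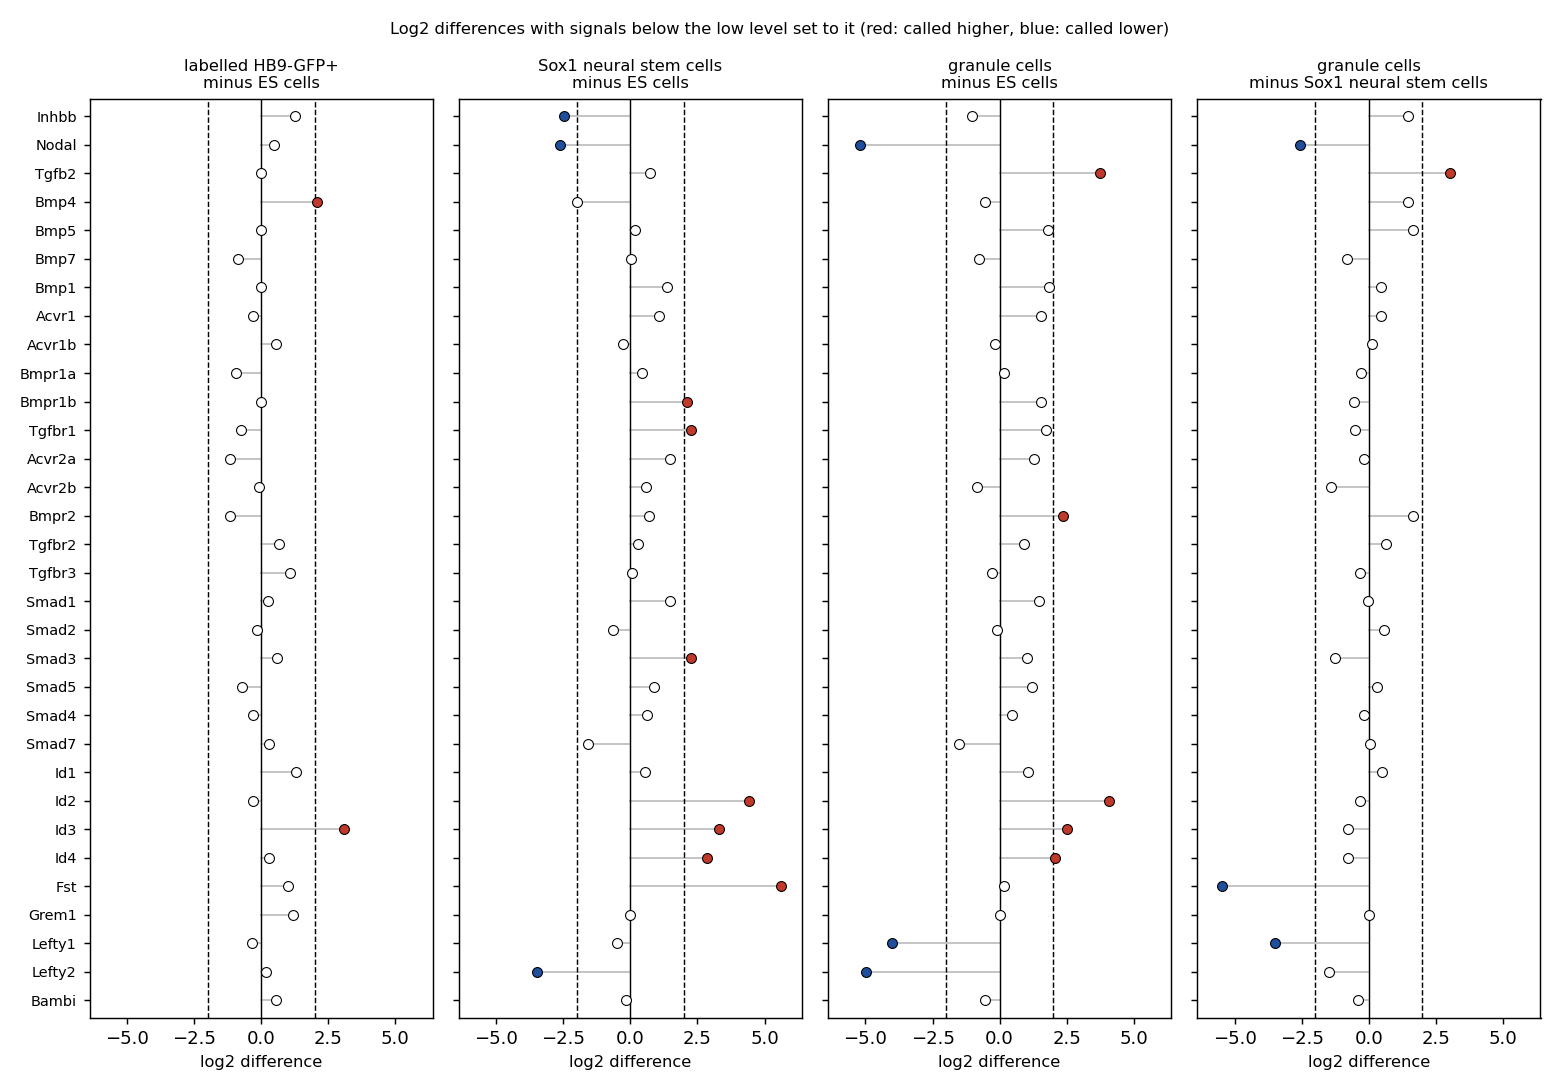
Log2 difference of each of the 32 detected genes in the 4 comparisons, with signals below the low level of 78.8 set to it; dashed lines mark 4-fold, and filled points are genes called higher (red) or lower (blue). The filled points number 2, 10, 8 and 4 from left to right. Id2, Id3 and Id4 are filled to the right in both the Sox1 and granule comparisons with ES cells, and Id1 is filled in neither.

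Sequence immediately upstream of the start site is shown for the 3 Id genes called higher on both neural arrays and for Nodal, called lower on both. It covers 250 bases before the start, on the gene's strand, from RefSeq on GRCm38.p6, in a table that held 34 of the 48 genes. The intervals are chr12:25096093-25096342 (minus strand) for Id2, chr4:136143572-136143821 (plus strand) for Id3, chr13:48260866-48261115 (plus strand) for Id4 and chr10:61417722-61417971 (plus strand) for Nodal. Capitals mark GGCGCC, a GC-rich element that BMP-activated Smads bind and that reads the same on both strands.
Id2: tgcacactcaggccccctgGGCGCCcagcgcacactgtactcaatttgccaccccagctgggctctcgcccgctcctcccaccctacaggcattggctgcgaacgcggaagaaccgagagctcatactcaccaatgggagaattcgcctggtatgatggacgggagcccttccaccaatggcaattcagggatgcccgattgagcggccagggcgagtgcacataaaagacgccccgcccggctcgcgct
Id3: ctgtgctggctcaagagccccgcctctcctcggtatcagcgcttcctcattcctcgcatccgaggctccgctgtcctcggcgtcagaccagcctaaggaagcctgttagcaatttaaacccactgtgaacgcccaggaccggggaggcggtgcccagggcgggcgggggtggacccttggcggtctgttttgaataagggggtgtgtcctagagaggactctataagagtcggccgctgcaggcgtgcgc
Id4: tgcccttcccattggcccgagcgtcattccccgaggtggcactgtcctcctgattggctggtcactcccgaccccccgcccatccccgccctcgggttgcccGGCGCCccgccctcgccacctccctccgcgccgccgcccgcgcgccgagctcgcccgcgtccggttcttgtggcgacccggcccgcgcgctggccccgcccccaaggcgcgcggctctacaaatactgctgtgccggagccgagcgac
Nodal: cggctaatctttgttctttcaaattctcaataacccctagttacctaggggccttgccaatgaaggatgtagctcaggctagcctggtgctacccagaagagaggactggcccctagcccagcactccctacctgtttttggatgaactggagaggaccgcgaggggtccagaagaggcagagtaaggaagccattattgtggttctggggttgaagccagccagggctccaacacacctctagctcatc
The GGCGCC element occurred once upstream of Id2, 231 to 226 bases before the start, and once upstream of Id4, 148 to 143 bases before it. It was not in the windows of Id3 or Nodal, and it was in 9.65% of all 32536 windows of this length. Among other members it was in a window of Bmpr1a, Bmpr2, Chrd, Grem1, Smad5, Smad9 and Tgfbr1, of which Chrd and Smad9 were detected on no array. The windows were 62.8% GC for Id2 and Id3, 75.6% for Id4 and 53.2% for Nodal, against a median of 52.4% over all. Whether GC content accounts for the matches was not tested. A further 5 patterns were searched on both strands. The Smad palindrome GTCTAGAC, the doubled half-site GTCTGTCT and the FoxH1 element TGTNNATT were in none of the 4 windows, against 0.17%, 1.56% and 10.9% of all windows. The single Smad half-site GTCT, which the first 2 of these also contain, matched once for Id2 and 2 times for Id3 on either strand, with 0 matches for Id4 and Nodal, and 82.9% of all windows held it. The TATA box TATAAA was in none of the 4 windows and in 12.3% of all. A match is a description of the letters only.

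Of the 5 Nodal and activin ligand genes, Nodal and Inhbb were detected, both highest on the HB9-GFP+-labelled array. Nodal, the ligand of this branch, had signals of 2911.5 on the ES array, 4101.8 on the HB9-GFP+-labelled array, 468.9 for Sox1 cells and 60.3 for granule cells. It was 6.21-fold lower on the Sox1 array than on the ES array, and at least 18.5-fold lower on the granule array, where it was undetected. Its other probe set was detected on the HB9-GFP+-labelled array alone, at 228.3, and stood at 119.3, 7.5 and 1.9 on the ES, Sox1 and granule arrays.

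The Lefty genes encode secreted antagonists that Nodal signalling itself induces. Lefty2 was at 2487.2 on the ES array, 2789.6 on the HB9-GFP+-labelled array, 220.7 for Sox1 cells and 12.5 for granule cells. That is 11.3-fold lower on the Sox1 array than on the ES array and at least 15.8-fold lower on the granule array. Lefty1 behaved differently on the Sox1 array. It was at 1260.8 on the ES array, 990.8 on the HB9-GFP+-labelled array and 884.4 on the Sox1 array, and was undetected at 14.6 on the granule array. Lefty1 on the granule array was at least 8.00-fold lower than on the ES array and at least 5.61-fold lower than on the Sox1 array. Nodal and Lefty1 were both set apart as low on the granule array, as were 1.37% of genes detected anywhere. For Nodal this rests on its difference between granule and Sox1 cells, -2.57 on the log2 scale, which was 0 with the mean of its probe sets and -1.57 with the low level 1 log2 unit higher, and so no longer called. Lefty1 and Lefty2 are close paralogs measured by 1 probe set each, and whether they share signal was not tested. Pluripotency markers moved with Nodal and Lefty2, whereas Lefty1 was only 1.43-fold lower on the Sox1 array than on the ES array. Pou5f1 was at 9255.5, 11188, 514.3 and 21.7 on the ES, HB9-GFP+-labelled, Sox1 and granule arrays. Nanog was at 4685.5, 7700.9, 324.3 and 4.4 in the same order. Over the 12 markers the summed signal was 120123, 120550, 23785 and 5326.2 in the same order, with 7 detected on the Sox1 array. Their part in the Nodal and Lefty signals was not tested.

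Nodal and Lefty2 were the 2 members at least 4-fold higher on each of the ES array and the HB9-GFP+-labelled array than on each neural array, a pattern shared by 2.09% of the 11571 genes detected on any array. Inhbb, the activin and inhibin beta B subunit, was at 437.2 on the ES array, 1051.6 on the HB9-GFP+-labelled array, 3.8 for Sox1 cells and 216.4 for granule cells. Its signal on the Sox1 array was at least 2.78-fold lower than on the ES array. The other probe set of Inhbb was detected nowhere, standing at 65.7 for ES cells and 60.4 for Sox1 cells, so the call rests on 1 probe set.

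Among the TGF-beta ligands only Tgfb2 was detected, and on 1 array. Its signals were 55.6 on the ES array, 48.4 on the HB9-GFP+-labelled array, 129.4 for Sox1 cells and 1044.4 for granule cells. The granule signal was at least 6.63-fold higher than that of each other array, and 4.27% of genes detected anywhere were likewise set apart as high there. All 4 probe sets of Tgfb2 were detected on the granule array alone, at 206.8, 673.8, 1044.4 and 1560.2, and 3 of the 4 were called against both ES and Sox1 cells. Markers of glia and other neurons moved with this difference. The astrocyte and Bergmann glia markers had a summed signal of 25305.3 on the granule array against 1333.7 on the Sox1 array, with Gfap at 2224.6 and Aqp4 at 8741.8, and the Purkinje and interneuron markers summed to 10232.3 against 459. Their part in the Tgfb2 signal was not tested.

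The BMP ligands were detected sparsely. Bmp4, the BMP most often linked to Id genes in ES cells, was at 310.5 on the ES array, 1316.2 on the HB9-GFP+-labelled array, 42.4 for Sox1 cells and 214.8 for granule cells. It was 4.24-fold higher on the HB9-GFP+-labelled array than on the ES array, just past the call, and it was the member set apart as high on that array against each other array, as were 0.648% of all genes detected anywhere. On the Sox1 array it was undetected, and at least 1.97-fold lower than on the ES array. Bmp5, a ligand of skeletal and neural development, was detected on the granule array alone, at 273.7, and stood at 30.9, 13.5 and 88.4 on the ES, HB9-GFP+-labelled and Sox1 arrays. Bmp7 stayed near the detection level, at 176.8 on the ES array, 96.9 on the HB9-GFP+-labelled array, 181.1 for Sox1 cells and 104.1 for granule cells. Bmp1, despite its name a metalloprotease that cleaves procollagen and the BMP antagonist chordin, was undetected at 16 on the ES array and 14.3 on the HB9-GFP+-labelled array, and was at 204.2 for Sox1 cells and 279.4 for granule cells.

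Type I receptors carry the kinase that phosphorylates Smads. Tgfbr1, the TGF-beta type I receptor gene, was at 1695 on the ES array, 1012.5 on the HB9-GFP+-labelled array, 8019.7 for Sox1 cells and 5599.2 for granule cells. It was 4.73-fold higher on the Sox1 array than on the ES array and 3.30-fold higher on the granule array, which is short of the call. Its other 2 probe sets were undetected throughout, with signals of 43.8 or less. Bmpr1b, a BMP type I receptor gene of neural and skeletal progenitors, was at 43.3 on the ES array, 26.8 on the HB9-GFP+-labelled array, 340 for Sox1 cells and 230 for granule cells, and was at least 2.16-fold higher on the Sox1 array than on the ES array. Its other 2 probe sets were undetected on all arrays. Bmpr1a, the other main BMP type I receptor gene, was detected on all arrays, at 2266.5, 1171.1, 3089.8 and 2540.4 on the ES, HB9-GFP+-labelled, Sox1 and granule arrays.

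Acvr1, a type I receptor gene used by BMPs, ranged from 332.5 on the HB9-GFP+-labelled array to 1176.5 on the granule array, with 406.3 on the ES array and 853.5 on the Sox1 array. Acvr1b, the type I receptor gene for Nodal and activin, was near level, from 873.8 on the Sox1 array to 1539 on the HB9-GFP+-labelled array, with 1062.9 on the ES array and 950.7 on the granule array. Nodal was undetected on the granule array while this receptor gene was detected there.

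Type II receptors bind ligand and activate the type I kinase. Bmpr2, the BMP type II receptor gene, was at 1514 on the ES array, 684.3 on the HB9-GFP+-labelled array, 2479.5 for Sox1 cells and 7750 for granule cells, and was 5.12-fold higher on the granule array than on the ES array. Another probe set of Bmpr2 was at 124.9 on the ES array and 333.9 on the granule array, in the same direction but short of the call. Acvr2a, an activin type II receptor gene, was at 1037.7 and 469.3 on the ES and HB9-GFP+-labelled arrays and at 2894 and 2546.3 on the Sox1 and granule arrays, and was 2.79-fold higher on Sox1 than on ES. Its other probe set stood at 276.4, 270.7, 695.1 and 455.5 in the same order, so near level between the first 2 arrays. Acvr2b, the paralog of Acvr2a, was highest on the Sox1 array at 1148 and lowest on the granule array at 429.4, with 776.9 on the ES array and 741.9 on the HB9-GFP+-labelled array. Another probe set of Acvr2b was highest on the ES array, at 425.4, with 350.8, 370.3 and 213.5 on the HB9-GFP+-labelled, Sox1 and granule arrays. The remaining one was undetected on all arrays. Tgfbr2, the TGF-beta type II receptor gene, was at 202, 320.3, 242.9 and 381.1 on the ES, HB9-GFP+-labelled, Sox1 and granule arrays. Tgfbr3, the co-receptor betaglycan, was highest on the HB9-GFP+-labelled array at 538.5, with 254.6, 268.3 and 211.2 on the ES, Sox1 and granule arrays.

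Of the 8 Smads, which carry the signal to the nucleus, 6 were detected and Smad3 alone was called. Smad3, a Nodal, activin and TGF-beta Smad, was at 416.2 on the ES array, 618.4 on the HB9-GFP+-labelled array, 2013.8 for Sox1 cells and 851.6 for granule cells, and was 4.84-fold higher on Sox1 than on ES. Its other 2 probe sets were undetected on all arrays. Smad2, which shares the role of Smad3, spanned 746.6 on the Sox1 array to 1182.3 on the ES array, with 1055.7 on the HB9-GFP+-labelled array and 1116.1 on the granule array. The other probe set of Smad2 was lowest elsewhere, on the HB9-GFP+-labelled array at 486.3, with 765.5, 711.9 and 694.7 on the ES, Sox1 and granule arrays.

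For the BMP Smads, Smad1 was at 2248.3 and 2676.1 on the ES and HB9-GFP+-labelled arrays and at 6280.4 and 6186.6 on the Sox1 and granule arrays. This 2.79-fold difference between Sox1 and ES cells was short of the call, and the other 2 probe sets of Smad1 differed in the same direction. Smad5 was at 516, 313.1, 946.1 and 1181.7 on the ES, HB9-GFP+-labelled, Sox1 and granule arrays, and another of its probe sets at 185.8, 285.2, 508.5 and 345.2. The remaining probe set of Smad5 was undetected on all arrays. Smad4, the common partner, was at 6911.2, 5596.6, 10749.1 and 9526.1 on the ES, HB9-GFP+-labelled, Sox1 and granule arrays. Its other probe sets were also detected everywhere and both were highest on the granule array, at 6619.5, 4303.3, 9952.3 and 10950.7 for one and 1067.3, 463.5, 1440.5 and 3109.3 for the other, in the same order. Smad7, an inhibitory Smad induced as feedback, ran the other way, at 988.2 and 1207.4 on the ES and HB9-GFP+-labelled arrays and 331.1 and 345.4 on the Sox1 and granule arrays. Its 2.98-fold difference between ES and Sox1 cells was short of the call, and its other probe set stood at 852, 1081.8, 231.4 and 261.6 in the same order of arrays.

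The Id genes encode proteins that block neurogenic and other basic helix-loop-helix factors, and all 4 were detected. Id2 was at 620.8 on the ES array, 496.3 on the HB9-GFP+-labelled array, 13192.6 for Sox1 cells and 10589.7 for granule cells. It was 21.3-fold higher on the Sox1 array than on the ES array and 17.1-fold higher on the granule array. A further probe set of Id2 stood at 62.7, 98.8, 1064.7 and 1827.5 in the same order and was called in both comparisons as well. The remaining probe set of Id2, at 18.2, 27.7, 148.3 and 208.6, was detected on the granule array alone and called in neither. Id2 was the member at least 4-fold lower on each of the ES array and the HB9-GFP+-labelled array than on each neural array, as were 2.46% of genes detected anywhere.

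Id4, a regulator of neural precursors, was at 610.4 on the ES array, 737.8 on the HB9-GFP+-labelled array, 4398.5 for Sox1 cells and 2559.7 for granule cells. It was 7.21-fold higher on Sox1 than on ES cells and 4.19-fold higher on the granule array, and all 3 of its probe sets were called in the first of these comparisons and 2 of the 3 in the second. Id3 differed from both in that it was low on the ES array alone. Its only probe set was at 30.8 on the ES array, 661.1 on the HB9-GFP+-labelled array, 774.4 for Sox1 cells and 454.5 for granule cells, at least 4.20-fold, 4.92-fold and 2.89-fold higher than on ES cells. Id3 was the member set apart as low on the ES array, where 0.320% of genes detected anywhere were. Id1, a classical BMP target with 1 probe set, was at 247.1, 609.2, 359.8 and 511.3 on the ES, HB9-GFP+-labelled, Sox1 and granule arrays, and its 2.47-fold difference between the HB9-GFP+-labelled array and the ES array was not called.

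Glial markers were also higher on the granule array than on the ES array. The astrocyte and Bergmann glia markers summed to 25305.3 there against 1899.3, with 7 of 8 called higher. On the Sox1 array the same markers summed to 1333.7. Their part in the Id2, Id3 and Id4 signals was not tested on any array.

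Bmp4, Id3 and Id1 were each higher on the HB9-GFP+-labelled array than on the ES array, the first 2 by the call. Fibroblast markers moved with them. Of the 12 markers, 7 were called higher and 0 lower on the HB9-GFP+-labelled array against ES. Col3a1 was at 6165.2 against 20.6 and Mgp at 6205.5 against 70.7. On the Sox1 and granule arrays, 4 and 8 of the 12 markers were detected. Their summed signals there were 4222.6 and 8417.1, against 33949.9 on the HB9-GFP+-labelled array and 9787.9 on the ES array. Whether fibroblast RNA contributed to Bmp4 or Id3 was not tested. Grem1, a BMP antagonist gene, was detected on the HB9-GFP+-labelled array alone, at 180.3, and stood at 39.2, 74.3 and 55.5 on the ES, Sox1 and granule arrays.

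Follistatin, encoded by Fst, binds activins and some BMPs outside the cell. Fst was at 134.2 on the ES array, 265.4 on the HB9-GFP+-labelled array, 6542.3 for Sox1 cells and 149.2 for granule cells. Its signal on the Sox1 array was at least 41.5-fold higher than on both the ES and granule arrays, and 24.7-fold higher than on the HB9-GFP+-labelled array. The other probe set of Fst was detected on the Sox1 array alone, at 1831.4, and was called in the same 2 comparisons. Fst was the member set apart as high on the Sox1 array, as were 0.968% of genes detected anywhere. Bambi, a pseudoreceptor without a kinase, was at 333.1, 493.2, 299.6 and 226.1 on the ES, HB9-GFP+-labelled, Sox1 and granule arrays.

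In all, 14 of the 48 genes were called in at least 1 of the 4 comparisons and 18 were detected but never called. The share of all genes called in at least 1 comparison was not counted, so these counts have no background beside them. Of the 18 never called, 14 were detected on all arrays, and their highest signal was 1.58-fold (Smad2) to 6.17-fold (Acvr2a) their lowest. The 2 ends of the Acvr2a range were the HB9-GFP+-labelled array and the Sox1 array, a pair outside the 4 comparisons. The other probe set of Acvr2a had the same 2 ends but a narrower range, 270.7 to 695.1.

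**Figure D3:**
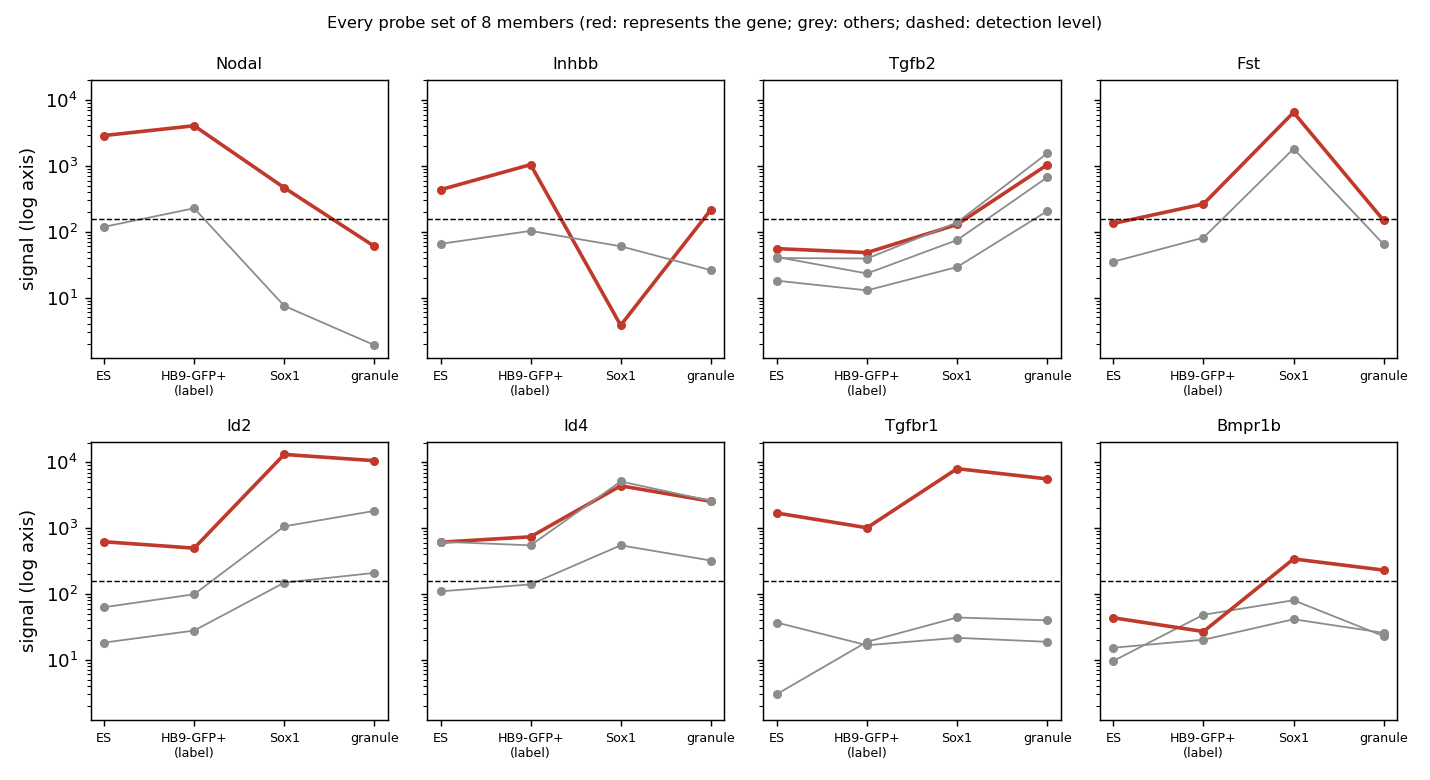
Signal (log axis) on the 4 arrays of every probe set of 8 members, with the probe set that represents the gene in red, the others in grey and the detection level of 157.5 dashed; lines only join the points of 1 probe set. The probe sets of Tgfb2, Fst, Id2 and Id4 have their high arrays in common, whereas the other probe sets of Tgfbr1, Bmpr1b and Inhbb are undetected on every array.

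Other genes of the pathway were taken from 5 lists, 91 of whose 104 genes were measured. Against ES cells, the Sox1 array had 4 higher and 5 lower of 58 detected on either array, where 11.4% of all genes were called. The granule array had 9 higher and 8 lower of 60, next to 19.6% of all genes, and the HB9-GFP+-labelled array 3 higher and 0 lower of 56, next to 3.46%. Between the granule and Sox1 arrays 6 were higher and 3 lower of 57, next to 10.0%. Tdgf1, Gdf3 and Foxh1, picked by name and not by range, had their higher signals on the ES and HB9-GFP+-labelled arrays, as Nodal did. Cfc1, also on the list of co-receptors, was detected on no array. It stood at 80.1, 107.8, 66.4 and 83.7 on the ES, HB9-GFP+-labelled, Sox1 and granule arrays. Tdgf1, the Nodal co-receptor Cripto and also 1 of the 12 pluripotency markers, was at 17646 on the ES array, 18715.6 on the HB9-GFP+-labelled array, 261.5 for Sox1 cells and 25 for granule cells, 67.5-fold lower on Sox1 than on ES cells. Gdf3, a Nodal-like ligand, was at 571.6 and 1804.8 on the first 2 of these arrays and undetected at 131.6 and 26.7 on the neural ones. Foxh1, the DNA-binding partner of Smad2 and Smad3, was at 382 and 412.6 on the ES and HB9-GFP+-labelled arrays and undetected at 112.7 and 1.7 on the Sox1 and granule arrays.

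Among intracellular regulators, 26 of 29 were detected on the ES array. Against ES cells, 1 of 27 was called on the Sox1 array and 3 of 28 on the granule array, with all genes at the shares just given. Tgif1, a co-repressor of Smads, was at 2481.3, 2255.6, 742.9 and 243.3 on the ES, HB9-GFP+-labelled, Sox1 and granule arrays, 10.2-fold lower on granule than on ES cells. Zeb2, a Smad-binding repressor, was undetected at 45.7 and 49 on the first 2 arrays and stood at 1332.9 and 1417.9 on the neural ones. Nedd4l, a ubiquitin ligase of Smads and receptors, was 4.70-fold higher on the granule array than on the Sox1 array, at 2047.3 against 435.4. For BMP co-receptors, Rgmb was at 168 on the ES array and 98.8 on the HB9-GFP+-labelled array, and at 708.7 on the Sox1 and 526.5 on the granule array. Neo1, the receptor of this co-receptor family, was 6.02-fold higher on the granule array than on the ES array, at 6461.5 against 1073.4. Amhr2, the type II receptor gene of anti-Mullerian hormone, was at 1338.9 and 795.7 on the ES and HB9-GFP+-labelled arrays and undetected at 61.1 and 48.5 on the neural ones.

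Among extracellular regulators, 8 of 28 were detected on the ES array. Dcn and Bgn, matrix proteoglycan genes whose products bind TGF-beta, were at 3375.9 and 2105.6 on the HB9-GFP+-labelled array and undetected at 24 and 32 on the ES array, and Dcn is also among the fibroblast markers above. Ltbp3, which anchors latent TGF-beta in the matrix, was at 4619.1 for granule cells against 628.1 for ES cells, 7.35-fold higher. Htra1, a secreted protease that antagonises TGF-beta family ligands, was undetected on the Sox1 array at 85.7, at least 14.7-fold lower than its 2322 on the ES array. Gdf10, a BMP3-like ligand that also marks Bergmann glia, was at 1796.3 on the granule array and undetected on the others. The lists of common targets were mixed. Tbx3 was at 2241.4 on the ES array and undetected at 63.8 on the Sox1 and 61.6 on the granule array, whereas Hey1 was 4.10-fold higher on the Sox1 array and 13.2-fold higher on the granule array than on the ES array. Cdkn1a, the cell cycle inhibitor p21, was 9.67-fold lower on the granule array than on the ES array, and Hes1 was at 510.2 on the Sox1 array against 69.9, undetected, on the granule array.

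**Figure D4:**
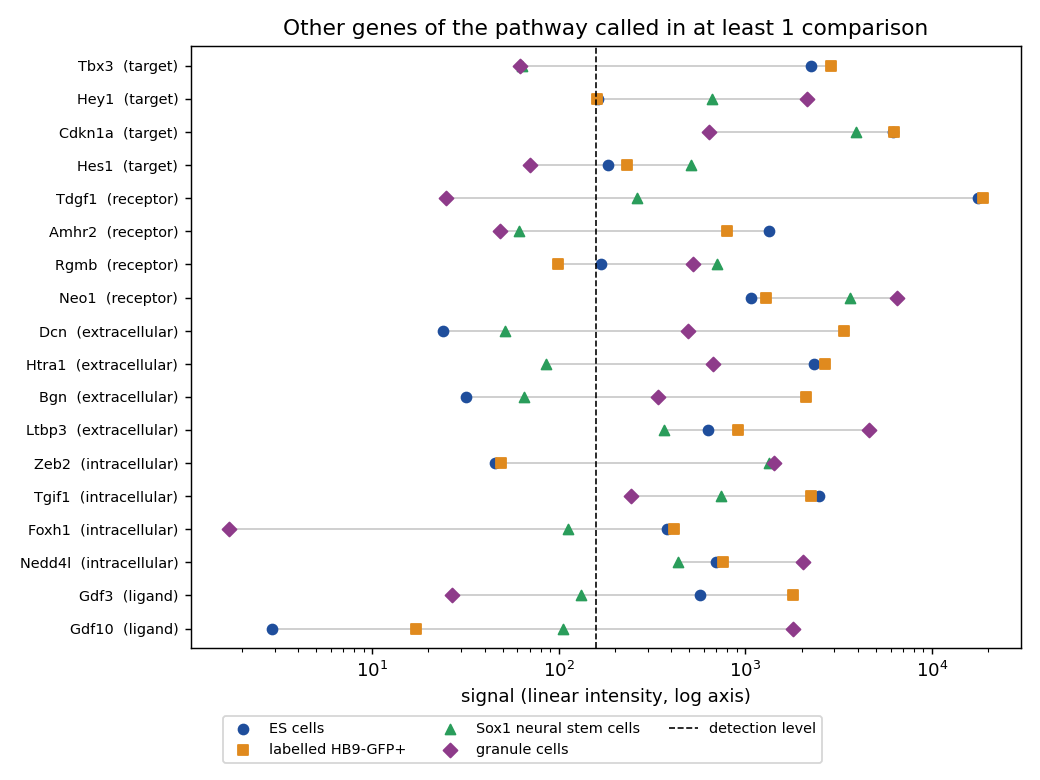
Signal (linear intensity on a log axis) on the 4 arrays of the genes with the widest range, up to 4 per list, from 5 lists of other pathway genes, with the detection level of 157.5 dashed. Gdf3, Foxh1 and Tbx3 are detected on the ES array and the HB9-GFP+-labelled array alone, Tdgf1 also on the Sox1 array at 261.5, Zeb2 on the neural arrays, and Dcn and Bgn are highest on the HB9-GFP+-labelled array.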

How the data were processed

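RNA of 4 samples was measured on 4 arrays, 1 per group. The deposited values, linear intensities of 45101 probe sets, span 0.1 to 43110.3. GCRMA is named, with no version, in the submitters' processing notes, but the authors' intensities have a trimmed mean of 500.0 on every array after dropping 2% at each end, so the step that made them is uncertain. Symbols were read from GEO's platform annotation: apart from 64 controls, 34945 probe sets carried 1 symbol and 932 several. All 101 probe sets of the members matched a RefSeq gene identifier, and 0 symbols changed. A gene was represented by the probe set with the highest mean log2 signal over the 4 arrays, taken here from the deposited intensities.

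The members, the lists and the rule of size were chosen with earlier results of these data known. All members were accounted for, those detected on at least 1 array by name and value, and other pathway genes by up to 4 per list with the widest range among those called, plus Tdgf1, Gdf3 and Foxh1. The pattern of the ES and HB9-GFP+-labelled arrays against both neural arrays was added after the data were seen. Precision is limited by having 4 arrays. The alternatives covered scaling, the probe set used, the low level, a pseudocount of 64 and the size of the call. The call rule was tested on simulated data. Python 3.11.15 with numpy 2.4.6 and pandas 2.3.3 was used.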

Additional observations from a re-analysis of the deposited data

How the results depend on the processing

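With 1 array per group no setting could leave out a replicate. No paired analysis was possible because each group has 1 array. Of the 24 member calls, none changed sign, 13 held under every setting, and all 24 held with quantile normalization, without shared-sequence probe sets and with the highest linear mean, the last chosen after seeing the data. With the mean of all probe sets of a gene, calls for Sox1 against ES numbered 6 in place of 10, without Inhbb, Bmpr1b, Tgfbr1 and Smad3. Over all genes that setting gave 387 higher and 422 lower for this comparison, in place of 653 and 549. The same setting lost Id4 in granule against ES (1.89) and Nodal in granule against Sox1 (0). Members detected fell on all 4 arrays, to 17 (ES), 17 (HB9-GFP+-labelled), 20 (Sox1) and 17 (granule). In the main setting they numbered 25, 27, 27 and 26 in the same order. The share of all genes detected with the mean of probe sets is not given here. A low level 1 log2 unit higher lost Inhbb (-1.47) and Bmpr1b (1.11) in Sox1 against ES, Id3 in granule against ES (1.53) and Nodal in granule against Sox1 (-1.57). A low level 1 log2 unit lower gave 7 calls for granule against Sox1 in place of 4. Over all genes it gave 845 higher and 492 lower in that comparison, in place of 665 and 380. With log2(signal + 64), Bmp4 was lost on the HB9-GFP+-labelled array at a difference of 1.88, leaving 1 call. All-gene calls for that array were then 145 higher and 82 lower, in place of 202 and 148. Bmpr1b in Sox1 against ES (1.91) and Id4 in granule against ES (1.96) were also lost with log2(signal + 64). Centring on reference genes lost Bmpr1b (1.94). At 2-fold the calls numbered 8 for the HB9-GFP+-labelled array, 16 for Sox1 and 20 for granule against ES, 11 for granule against Sox1, and 14 members were set apart in place of 6. Over all genes, 2-fold gave 1210 higher and 1279 lower of 10117 for the HB9-GFP+-labelled array, and 2004 and 2034 of 10532 for Sox1. For granule it gave 2799 and 2750 of 10970 against ES, and 1854 and 1589 of 10405 against Sox1. At 8-fold the member calls numbered 1, 4 and 5 against ES, and 3 members were set apart. The all-gene calls at 8-fold were 51 higher and 11 lower, 271 and 173, and 573 and 339, in the same order. Genes set apart over the whole array were not counted at either size. Choosing probe sets and the low level without the HB9-GFP+-labelled array, also added after seeing the data, lost Bmpr1b in Sox1 against ES at 1.99. The low level is set from array medians, so differences between undetected signals carry no order.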
